A study of Mus musculus with 11 samples.

Results

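Of the 11561 autosomal regions obtained by joining the Xist peaks of 4 epiblast-like cell (EpiLC) libraries, 719 (6.22%) were called at day 4 (D4) and at neither day 2 (D2) replicate. They were selected from the calls themselves: all peaks of the 2 D2 and 2 D4 lists were merged where they shared 1 bp or more, and a merged region was kept where a D4 peak lay in it and no D2 peak did. Of the 719 regions, 42 (0.363% of all merged regions) were called in both D4 lists and 677 in 1 D4 list, 367 of these in replicate 1 and 310 in replicate 2. Because the calls chose the regions, their presence at D4, their absence at D2 and their peak values are given as a description, with no test.

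In female cells the long noncoding RNA Xist coats an X chromosome and silences its genes. It is switched on when embryonic stem cells leave the naive state, which EpiLC culture brings about, and it stays on in female somatic cells such as mouse embryonic fibroblasts (MEFs). It is best known for spreading along the X chromosome that expresses it. Peaks on other chromosomes mark DNA enriched in the pulldown away from that main site, and whether Xist was in contact there was not tested. Male cells normally do not express Xist, and a male library therefore shows what the pulldown brings down without its target.

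RNA antisense purification (RAP-seq) captures Xist with biotinylated oligonucleotide probes from crosslinked chromatin and sequences the DNA that comes with it. The groups used here were Xist pulldowns from female EpiLCs, made from embryonic stem cells with Activin A and bFGF, at D2 (n = 2) and at D4 (n = 2), from female MEFs (n = 1) and from male MEFs (n = 1), with no other agent added. Strain, cell line and clone are not given in the sources used here, and the 5 input samples were not analysed here. The replicate 1 EpiLC pulldowns re-analyse an earlier deposit according to the labels, and replicate 2 does not carry that remark.

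The D4 lists are short beside the D2 lists, which bears on every count of D4-only regions. The D2 lists held 8227 and 7544 peaks in replicates 1 and 2, the D4 lists 1553 and 1148, the female MEF list 1020 and the male MEF list 326. The lists hold no read counts, so depth is unknown, and a region missing from a D2 list is only not called there. These are bulk libraries, so any Xist contact in few cells and any weak contact in many cannot be told apart. The labelled cell types could not be checked against marker genes, since DNA and not expression was measured. Positions are on mm9, counted from 1. Genes and sequence at these positions were not analysed here.

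D4-only regions were 44% of the 1633 merged regions that held a D4 peak, and the other 914 of these also held a D2 peak. Counted as peaks, the D4-only part was smaller. The 914 regions held 73.6% of the D4 replicate 1 peaks and 69.3% of the D4 replicate 2 peaks. They held 85.9% and 82.3% of the length called in these lists. Replicate 1 contributed 409 of the D4-only regions and replicate 2 contributed 352, a mean of 380.5 ± 40.3 (SD, n = 2). Leaving out D4 replicate 1 left 364 D4-only regions and leaving out D4 replicate 2 left 419. The 42 regions in both D4 lists became 72 when D2 replicate 1 was left out and 57 when D2 replicate 2 was left out. Keeping only D4 peaks whose −log10 q reached 2 left 41 D4-only regions, 1 of them in both D4 lists. With each EpiLC list cut to its strongest 1148 peaks the count was 1458, 153 of them in both D4 lists. That cut removed most D2 peaks, so regions called on both days could become D4-only by losing their D2 peaks.

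The regions were short and weakly enriched. Beside peaks of regions also called at D2, peaks of D4-only regions in 1 D4 list had like medians and fewer strong peaks. Fold enrichment here is the authors' value for a peak over the peak caller's background. Its median over all peaks differed between the EpiLC lists, from 2.61 in D2 replicate 1 to 2.85 in D4 replicate 2. Values of different lists set side by side are therefore not on 1 scale. In D4 replicate 1 the 367 peaks called in that list alone had a median fold enrichment of 2.83, and the 1143 peaks of regions also called at D2 had a median of 2.81. In D4 replicate 2 the medians were 2.85 for 310 peaks and 2.85 for 796 peaks. Median −log10 q was 1.58 against 1.59 in replicate 1 and 1.48 against 1.505 in replicate 2. In replicate 2, 60.0% of the 310 peaks lay below the list's median −log10 q, against 45.5% of the 796, and 10.3% against 19.5% had a fold enrichment of at least 3. In replicate 1 the shares were 51.8% against 50.0% and 12.0% against 15.9%. A −log10 q of at least 2 was reached by 7.08% against 11.6% in replicate 1 and by 3.55% against 8.92% in replicate 2. A −log10 q of at least 3 was reached by 1 of the 367 and 18 of the 1143 peaks in replicate 1, and by 1 of the 310 and 11 of the 796 in replicate 2. Peaks of D4-only regions in 1 list were also shorter, with medians of 2423 bp in replicate 1 and 2263 bp in replicate 2, against 3102 and 2947 bp for peaks of regions also called at D2. They held 12.1% of the length called in D4 replicate 1 and 14.6% of that in replicate 2, from 23.6% and 27% of the peaks.

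The 42 regions called in both D4 lists had a median length of 5396 bp and a range of 1031 to 13989 bp. Regions called in 1 list had a median of 2374 bp. A region in both lists joins peaks of both, so its greater length follows in part from the merging. The single peaks in these 42 regions had medians of 3212 bp in replicate 1 and 3509.5 bp in replicate 2. Peaks called in 1 list alone had medians of 2423 and 2263 bp. The fold enrichment of the 42 regions ran from 2.62 to 4.43 in replicate 1 (median 2.91) and from 2.67 to 4.07 in replicate 2 (median 2.87). In 24 of the 42 the value was under 3 in both lists, and in 5 it was at least 3 in both. A fold enrichment of at least 3 was reached by 27.9% of the peaks of these regions in replicate 1 and 26.2% in replicate 2. Peaks of regions also called at D2 stood at 15.9% and 19.5%. For a −log10 q of at least 2 the order was turned, with 4.65% and 4.76% against 11.6% and 8.92%. The peaks of the 2 libraries often overlapped only in part: a median of 29.2% of the region was covered by both, and 6 regions were covered by both over at least 50% of their length.

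A narrow site on chromosome 5, 145907362 to 145908946, stood above the rest of the 42 regions. Its fold enrichment was 4.43 in D4 replicate 1 and 4.07 in D4 replicate 2, with −log10 q of 6.15 and 4.37. The next highest values among the 42 regions were 3.14 in replicate 1 and 3.26 in replicate 2, so it was the first of the 42 in both lists. Regions also called at D2 reached 12.3 in D4 replicate 1 and 9.31 in D4 replicate 2. The chromosome 5 site was also called in female MEFs, with a fold enrichment of 3.44 over a peak of 0.197 kb, and not in male MEFs. The nearest D2 peak lay 442.4 kb away.

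**Figure D1:**
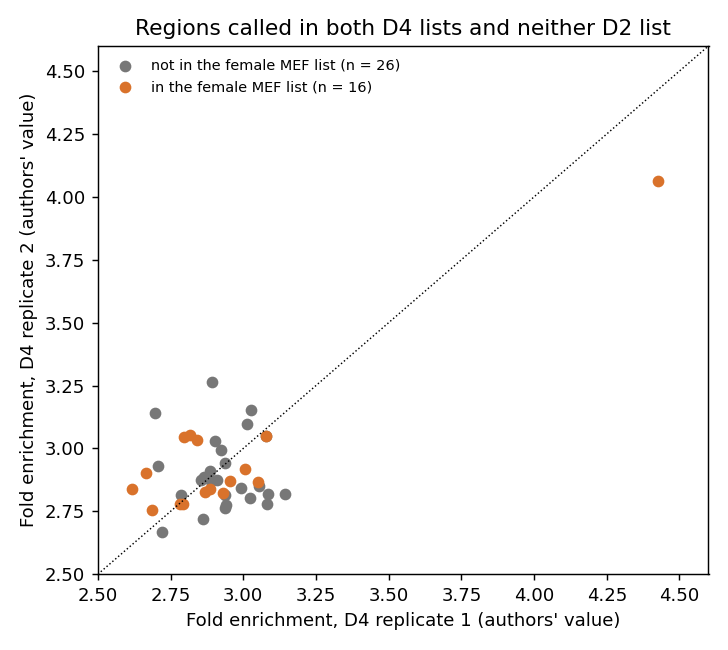
Fold enrichment (the authors' value, linear) of the 42 regions called in both D4 lists and neither D2 list, D4 replicate 1 on the horizontal and replicate 2 on the vertical axis. Each point is a region, orange where it overlaps a female MEF peak (16) and grey where it does not (26), and the dotted line marks equal values. The chromosome 5 site (4.43 and 4.07) lies apart, and the other 41 lie at or below 3.14 in replicate 1 and 3.26 in replicate 2.

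The other leading regions of both D4 lists were close to each other in strength. By mean rank of fold enrichment the next were on chromosome 11, 112857759 to 112867556 (3.03 in replicate 1 and 3.15 in replicate 2), and on chromosome 3, 102452103 to 102464321 (3.08 and 3.05). They were followed by chromosome 4, 152338705 to 152342602 (3.08 and 3.05), and by chromosome 5, 119838564 to 119842578 (3.01 and 3.10). The remaining 5 of the first 10 were again spread, with 3 on chromosome 4. Of those 3, the region at 152233492 to 152240899 had 2.89 and 3.26, the one at 152776489 to 152782309 had 3.01 and 2.92, and the one at 151970455 to 151973516 had 3.05 and 2.87. The other two were on chromosome 11, 52833597 to 52843313 (2.94 and 2.94), and chromosome 8, 12317737 to 12320043 (3.05 and 2.85). Of these 10 regions, 4 lay in the same part of distal chromosome 4.

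The longest regions in both D4 lists were not the strongest, and 4 of the 5 had a fold enrichment under 3 in each list. The longest, chromosome 4, 152033148 to 152047136 (13989 bp), had 2.87 in replicate 1 and 2.83 in replicate 2. The region on chromosome 9, 119441932 to 119454552, had 2.69 and 2.76. The others were on chromosome 15, 74046531 to 74058622 (2.88 and 2.84), on chromosome 4, 142228843 to 142240832 (2.94 and 2.78), and on chromosome 3, the third region by rank named above.

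Among the 677 regions called in 1 D4 list, the highest fold enrichments were 3.63 in each library. In replicate 1 this was a site of 202 bp on chromosome 15, 74322060 to 74322261. Next came a region on chromosome 12, 19901568 to 19903348 (3.43), and another on chromosome 15, 74021068 to 74025126 (3.40). Chromosome 11, 81589733 to 81592624, had 3.32 and chromosome 4, 139858933 to 139862633, had 3.31. All of these but the chromosome 12 site were also called in female MEFs. In replicate 2 the highest was on chromosome 6, 125835004 to 125837091, and the next on chromosome 8, 102200975 to 102201160 (3.40). A second region of chromosome 6, 118537014 to 118538712, had 3.30, and on chromosome 1 the values were 3.30 at 192159104 to 192161896 and 3.28 at 92206617 to 92209858. None of these 5 was in the female MEF list. The longest were up to 13213 bp in replicate 1, at chromosome 4, 140047304 to 140060516 (2.78), and up to 11345 bp in replicate 2, at chromosome 15, 85791355 to 85802699 (2.87). Both of these overlapped a female MEF peak in part, over 1898 bp on chromosome 4 and 516 bp on chromosome 15.

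Many D4-only regions lay next to a D2 peak. The median distance to the nearest D2 peak, edge to edge, was 16.8 kb over the 719 regions. It was 12.9 kb for regions in replicate 1 alone, 20.3 kb for those in replicate 2 alone and 19.1 kb for those in both D4 lists. A D2 peak lay less than 5 kb away from 200 of the 719 (27.8%) and less than 10 kb away from 296 (41.2%). For the 42 regions in both D4 lists the counts were 14 and 17 (40.5%), close to the 41.2% of regions in 1 list. D2 peaks flanked 105 of the 719 (14.6%) within 10 kb on both sides, and 296 (41.2%) within 50 kb on both sides. Of the 296 regions with a D2 peak less than 10 kb away, 121 had peaks of both D2 lists there, 97 had a peak of D2 replicate 1 alone and 78 of D2 replicate 2 alone.

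D2 peaks called in 1 replicate alone lay at medians of like size from the other D2 replicate. D2 replicate 1 peaks with no overlap in D2 replicate 2 lay a median of 15.4 kb from the nearest replicate 2 peak. In the other direction the median was 12.6 kb. These are distances to 1 D2 list, while those of D4-only regions are to the nearest peak of either D2 list, so the measures differ. D4-only regions in 1 D4 list lay farther from the other D4 list than from D2, with a median of 63.9 kb, and 72 of 367 (19.6%) and 66 of 310 (21.3%) had a peak of the other D4 list less than 10 kb away. The D2 lists hold several times as many peaks as the D4 lists, so the distances to D2 and to D4 are not on an equal footing. Regions at least 10 kb from any D2 peak numbered 423, of which 25 were in both D4 lists.

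**Figure D2:**
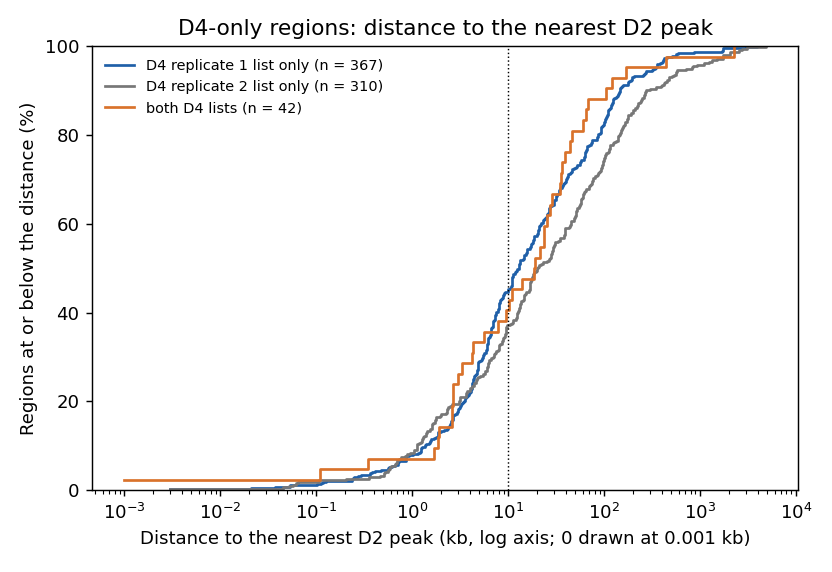
Cumulative share (%) of D4-only regions against the distance to the nearest D2 peak in kb on a log axis, for regions in D4 replicate 1 alone (367), in replicate 2 alone (310) and in both D4 lists (42). The dotted line marks 10 kb, where the curves stand at 44.7%, 37.1% and 40.5%, and the region at distance 0 is drawn at the left edge.

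The rule counts regions on either side of a few bases differently. A region in both D4 lists on chromosome 5, 119838564 to 119842578, touched a D2 peak with no base between them and was kept, because no base was shared. Counting touching peaks as joined gave 718 regions, 41 of them in both D4 lists. Regions on chromosome 4, 152060318 to 152065730, and chromosome 15, 85776254 to 85777404, lay 3 bp from a D2 peak and were kept as well. Just outside were merged regions in which D4 and D2 peaks shared 1 bp on chromosome 11, 94424408 to 94429869, 8 bp on chromosome 6, 90630633 to 90633352, and 10 bp on chromosome 7, 74517088 to 74517971. Their D4 fold enrichments were 2.72, 3.01 and 2.87, and those of the 3 kept regions ran from 2.81 to 3.10.

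At the other end, 147 of the 719 regions (20.4%) lay at least 100 kb from any D2 peak and 19 lay at least 1000 kb away. Of these 19, 5 came from replicate 1 alone, 13 from replicate 2 alone and 1 from both D4 lists. That last one was on chromosome 1, 189429767 to 189433087, with a fold enrichment of 2.72 in replicate 1 and 2.67 in replicate 2, and lay 2272 kb from a D2 peak. The others of both D4 lists farthest from D2 were the chromosome 5 site at 145907362 and 3 more. These lay 171.2 kb away on chromosome 5, 37808724 to 37818694, 122.1 kb away on chromosome 15, 72500343 to 72504818, and 105.2 kb away on chromosome 7, 85734820 to 85742656. The fold enrichments of these 3 lay between 2.71 and 3.08 in both lists. The farthest of all was in replicate 2 alone, on chromosome 2, 65076313 to 65077014 (2.76), at 4921 kb. In replicate 1 the farthest was chromosome 7, 67004882 to 67007541 (2.76), at 3949 kb. It lay inside a female MEF peak of 5.20 kb with a fold enrichment of 4.15 in that list.

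Fibroblasts were not used by the rule, so their lists give a reading of the D4-only regions that the selection did not fix. Of the 719 regions, 120 (16.7%) overlapped a female MEF peak by at least 1 bp, against 5.61% of all 11561 merged EpiLC regions and 350 of 9928 (3.53%) of those called at D2 only. Regions called at both days stood at 179 of 914 (19.6%). The share was 17.1% for the D4-only regions of replicate 1 and 18.8% for those of replicate 2, a mean of 17.9 ± 1.16% (SD, n = 2). The D4 libraries share the 42 regions called in both and were set against the same female MEF list. Their spread therefore does not measure how certain the gap to the D2-only regions is. No test was run, because the female MEF list is 1 library and neighbouring regions are not independent.

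The share in female MEFs was higher among regions called in both D4 lists. It was 16 of 42 (38.1%) there and 104 of 677 (15.4%) among regions in 1 D4 list. Over all lengths, D2-only regions did not show such a step, with 101 of 2676 (3.77%) in both D2 lists and 249 of 7252 (3.43%) in 1 D2 list. Length bears on an overlap share, so the shares are given by length, and they did not all go the same way. Between 1 and 2.5 kb, 1 of 4 regions in both D4 lists and 34 of 246 in 1 list (13.8%) overlapped a female MEF peak. Between 2.5 and 5 kb, the counts were 7 of 16 (43.8%) and 39 of 260 (15.0%). Between 5 and 10 kb they were 5 of 15 (33.3%) and 10 of 51 (19.6%), and over 10 kb the order was turned, with 3 of 7 (42.9%) and 3 of 5 (60.0%). All 115 D4-only regions up to 1 kb were in 1 list. Among D2-only regions, the share was lower in both D2 lists than in 1 list in each length band up to 10 kb. Between 2.5 and 5 kb it was 2.14% against 3.48%, and between 5 and 10 kb 3.63% against 3.84%. Over 10 kb it was 5.29% against 4.88%. The part of length in these differences was not tested.

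**Figure D3:**
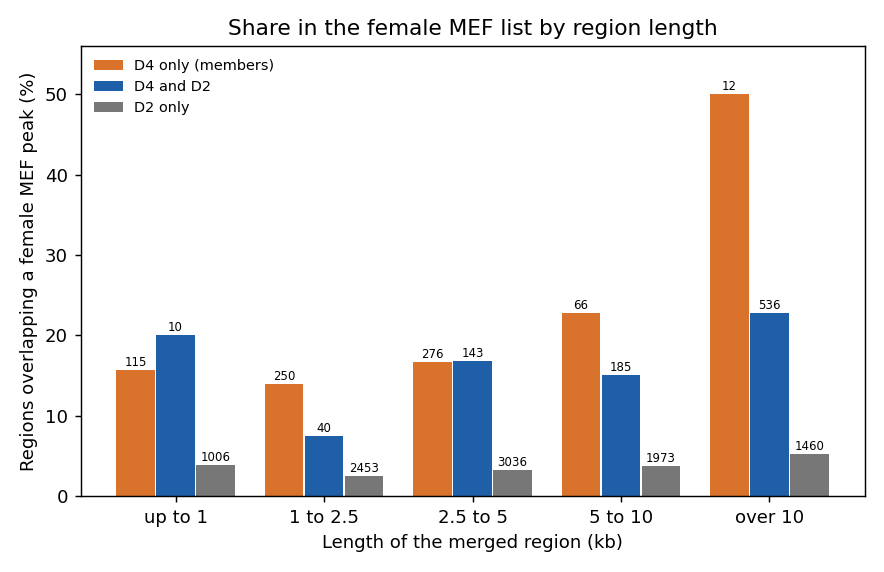
Share (%) of merged EpiLC regions that overlap a female MEF peak, by region length in kb, for regions called at D4 only, at D4 and D2, and at D2 only; the number above a bar is the count of regions in it. The D4-only bars lie between 14.0% and 22.7% up to 10 kb and at 50.0% for the 12 regions over 10 kb, and the D2-only bars lie between 2.49% and 5.21%.

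Most of the 120 regions lay inside a longer fibroblast peak. Of them, 93 were wholly covered by the female MEF list, 10 of these from both D4 lists. The 120 regions overlapped 74 female MEF peaks with a median length of 14.1 kb, against 5.52 kb over all 1020. A longer peak is more likely to be overlapped by any region, so this difference is not particular to D4-only regions. Seen from the fibroblast side, 74 of the 1020 peaks (7.25%) held a D4-only region. For 42 of these (4.12%) it was the only kind of EpiLC region they held, and the other 32 also held a region called at D2. Counting a region as present only where its midpoint lay in a female MEF peak gave 103 of 719 (14.3%), against 263 of 9928 (2.65%) for the D2-only regions. For regions called on both days it was 116 of 914 (12.7%). By midpoint the D4-only share thus stood above that of regions called on both days, and by 1 bp overlap below it.

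The regions shared with female MEFs were gathered on a few chromosomes. Chromosomes 4, 11 and 15 held 95 of the 120, and 8 of the 19 autosomes held none. On chromosome 15, 36 of 68 D4-only regions (52.9%) overlapped a female MEF peak, on chromosome 4 it was 39 of 100 (39.0%) and on chromosome 11 it was 20 of 78 (25.6%). The D2-only regions of these chromosomes also stood above their average, at 12.3%, 16.8% and 5.82%, and the regions called on both days stood highest, at 69.2%, 54.9% and 45.5%. Away from these 3 chromosomes, which were singled out after their values were seen, the share was 25 of 473 (5.29%) for D4-only regions, 55 of 687 (8.01%) for regions called on both days and 162 of 8288 (1.95%) for D2-only regions. Chromosome by chromosome the D4-only share was above the D2-only share on 10, below it on 4 and equal to it, at 0, on 5.

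The 16 regions of both D4 lists that were also called in female MEFs lay on 7 chromosomes. Chromosome 4 held 5, all between 151970455 and 152782309, and chromosome 15 held 4, between 73879347 and 74331934. On chromosome 11 they were at 81596310 to 81599135 (2.82 in D4 replicate 1 and 3.05 in replicate 2, 2.95 in female MEFs) and 82025796 to 82032025 (2.93, 2.82 and 2.87). On chromosome 9 the region at 119404910 to 119408376 had 2.62, 2.84 and 2.93, and the region at 119441932 had 2.90 in female MEFs. The remaining 3 were the chromosome 5 site, chromosome 6, 121406869 to 121409767 (2.79, 2.78 and 2.87), and chromosome 12, 118444771 to 118448362 (2.78, 2.78 and 3.24). Most of the 16 were not far from D2 calls: 9 lay less than 10 kb and 15 less than 50 kb from a D2 peak. The chromosome 12 region lay 0.109 kb and the first chromosome 9 region 0.350 kb away. Over all D4-only regions, 103 of 491 (21.0%) less than 50 kb from D2 overlapped a female MEF peak. From 50 to 100 kb it was 4 of 81 (4.94%), and at 100 kb or more 13 of 147 (8.84%).

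Overlap with male MEFs was rare. Of the 719 regions, 4 (0.556%) overlapped a male MEF peak, against 1.14% of all merged EpiLC regions, and none of the 42 regions in both D4 lists did. The male list holds 326 peaks and can reach few regions. The 4 were on chromosome 15, 72733273 to 72737319 (2.93) and chromosome 16, 35490429 to 35490860 (2.90) from replicate 1, and on chromosome 4, 46636552 to 46640411 (2.76) and chromosome 2, 98507193 to 98507431 (2.01) from replicate 2. The chromosome 2 site lay near the end of the strongest male peak (98502409 to 98507489, fold enrichment 15.1). It had the lowest fold enrichment of D4 replicate 2 and, at 6.58, the highest −log10 q of any D4-only region. As background, that part of the mouse genome often gives high counts in sequencing assays whatever the target. No D4-only region overlapped peaks of both MEF lists.

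D4-only regions were unevenly spread over the autosomes. On chromosome 15, 68 of 327 merged regions (20.8%) were D4-only, followed by chromosome 8 with 46 of 422 (10.9%), chromosome 4 with 100 of 937 (10.7%) and chromosome 11 with 78 of 849 (9.19%), against 6.22% overall. The lowest shares were on chromosome 19, with 5 of 420 (1.19%), and chromosome 10, with 6 of 396 (1.52%), the 2 autosomes with no female MEF peak. Both D4 libraries contributed on each chromosome: on chromosome 15 replicate 1 alone gave 27 and replicate 2 alone 35, and on chromosome 4 they gave 48 and 41. The 42 regions in both D4 lists lay on 13 chromosomes, with 11 on chromosome 4, 6 on chromosome 15 and 5 on chromosome 11. Chromosomes 10, 13, 16, 17, 18 and 19 held none.

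**Figure D4:**
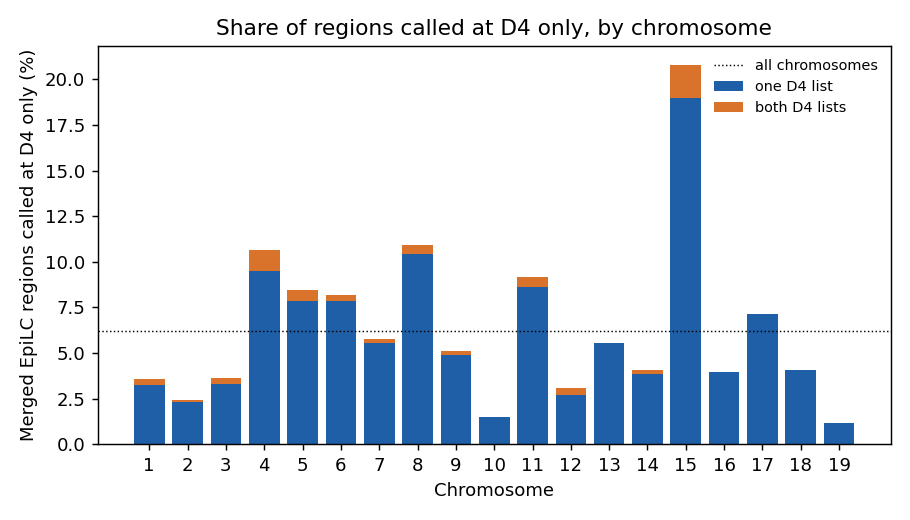
Share (%) of the merged EpiLC regions of each autosome that were called at D4 only, split into regions in 1 D4 list (blue) and in both D4 lists (orange); the dotted line is the share over all autosomes (6.22%). Chromosome 15 is highest at 20.8%, and chromosomes 19 and 10 are lowest at 1.19% and 1.52%.

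Along a chromosome, some D4-only regions came in groups and others lay alone. The same joining was not done for the other merged regions, so grouping is not shown to be particular to D4-only regions. Joining neighbours no more than 100 kb apart, a distance set after the values were seen, gave 380 stretches. Of the 719 regions, 275 (38.2%) were alone and 245 (34.1%) lay in 27 stretches of at least 5. Each of these 27 stretches held regions of both D4 libraries. Of the 42 regions in both D4 lists, 25 lay in such stretches and 7 were alone. The share in female MEFs was 33.9% in the 27 stretches and 7.27% among the regions that were alone. The median distance to a D2 peak was 11.02 kb and 24.9 kb.

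The stretch with the most D4-only regions was on distal chromosome 4, 151792435 to 152912869 (1120 kb). It held 46 of them, 10 in both D4 lists, 18 in replicate 1 alone and 18 in replicate 2 alone, beside 11 regions called on both days. The D4 lists covered 15.9% and 9.30% of it in replicates 1 and 2, with 40 and 31 peaks. The D2 lists covered 5.61% and 6.01%, with 17 and 15 peaks. D4-only regions alone filled 14.4% of the stretch. This stretch and those below were drawn around D4-only regions, so more cover at D4 than at D2 describes the selection. Female MEFs covered 39.6% with 31 peaks and male MEFs had no peak. Of the 46 regions, 27 overlapped a female MEF peak. Leaving this stretch out, 673 D4-only regions remained, 32 of them in both D4 lists, and the share in female MEFs was 13.8%.

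**Figure D5:**
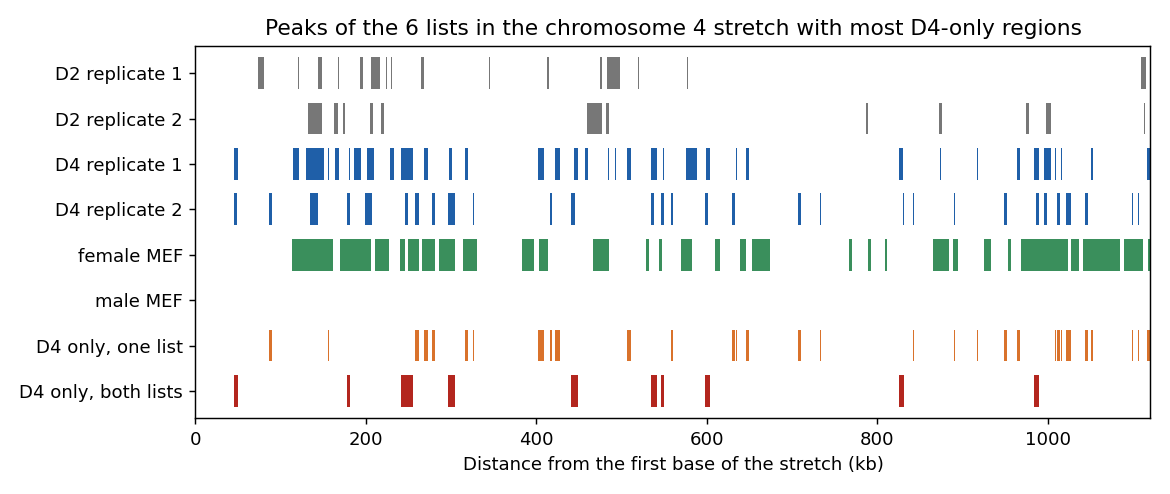
Peaks of the 6 lists, and the 46 D4-only regions they give, along the 1120 kb of the distal chromosome 4 stretch; the horizontal axis is the distance in kb from its first base and each bar is a peak or region drawn to scale. D4 peaks are spread over the stretch (15.9% and 9.30% covered), D2 peaks are fewer (5.61% and 6.01%), female MEF peaks cover 39.6% and male MEFs have none. The stretch was drawn around D4-only regions, so more cover at D4 than at D2 describes the selection.

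On chromosome 15 a stretch at 73719800 to 74138873 (419 kb) was called almost throughout in female MEFs and in patches at D4. Female MEFs covered 96.5% of it with 4 peaks. The D4 lists covered 13.4% and 11.6% in replicates 1 and 2, and the D2 lists 1.41% and 7.29%. It held 14 D4-only regions, 3 of them in both D4 lists, and all 14 overlapped a female MEF peak. The next stretch, at 74244563 to 74370287, showed the same order. Its cover was 95.5% in female MEFs, 31.2% and 20.5% at D4 and 10.4% and 12.1% at D2. In both stretches the order of D4 over D2 describes the selection. A further one at 83643157 to 83849766 had 97.3% in female MEFs but similar cover at D4 (4.596% and 6.75%) and D2 (3.66% and 6.37%). In all, 6 of the 27 stretches were covered over more than 50% by the female MEF list, and they held 53 D4-only regions, 48 of them in that list.

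Of the 27 stretches, 16 held no female MEF peak. The largest of these, chromosome 6, 118659689 to 119050404, held 14 D4-only regions, 7 from each D4 library alone and none in both D4 lists, with 8.08% and 5.15% covered at D4 and 1.11% and 2.88% at D2. On chromosome 5, 119629779 to 119934228, 12 regions, 1 of them in both D4 lists, lay among D2 peaks, with 23.1% and 16.3% covered at D4 and 8.28% and 16.8% at D2. On chromosome 11, 112733007 to 112936791, where 10 regions lay, D2 replicate 1 covered 20.9% and D2 replicate 2 covered 7.48%, against 22.0% and 20.0% at D4, and male MEFs had 1 peak. The D2 libraries differed more from each other there than the D4 libraries did.

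In 6 of the 27 stretches neither D2 list had a peak, and these held 42 D4-only regions. On chromosome 15, 72378271 to 72603593, 8 regions lay a median of 97.6 kb from a D2 peak, 1 in both D4 lists, 1 in replicate 1 alone and 6 in replicate 2 alone. On chromosome 5, 37704715 to 37915978, 8 regions came from replicate 1 with 8 peaks and replicate 2 with 1 peak, and the median distance to D2 was 123.9 kb. On chromosome 15, 86168040 to 86379110, 4 regions in replicate 1 and 2 in replicate 2 lay a median of 480.3 kb from D2. The others were on chromosome 4, 46742634 to 47125763, on chromosome 7, 138252150 to 138409607, and on chromosome 8, 12227769 to 12362796, where 1 of 7 regions was in both D4 lists. Female MEF peaks covered 14.7% of the chromosome 8 stretch, 2.28% of the chromosome 4 stretch and none of the other 4. In 14 of the 27 stretches each D4 list covered more than each D2 list, and stretches were drawn around D4-only regions, so this count describes the selection.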

How the data were processed

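Peak lists of 6 Xist pulldown libraries were analysed, 1 list per library. The authors' tools, per the submitters' processing notes, were MACS2 2.2.7.1 and bedtools 2.26.0, Picard, SAMtools 1.9, Bowtie2 2.2.9 and Trim Galore 0.4.1, and the build was mm9. Settings, and the input behind each list, are not given in the sources used here. Each deposited peak carries a fold enrichment, which is a linear ratio, and a −log10 p and −log10 q from the peak caller, and the deposited score (−log10 q times 10, rounded down) was not used. Every list covers chromosomes 1 to 19, except female MEFs, with none on 10 and 19.

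Peaks were merged and compared with Python 3.11.15 and pandas 2.3.3; merging was identical to bedtools 2.31.1 on these lists, and classes and distances were tested on simulated data. A region called more than once in a list has that list's highest value. Replicates may be technical. With 2 libraries a day and regions chosen by their calls, no p-value is given. Named regions follow a rule on rank, length, distance and MEF overlap, with exceptions stated. Regions and rules were chosen with earlier results of these data known. Genes were not assigned, since the gene table given is on GRCm38.p6.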

Additional observations from a re-analysis of the deposited data

How the results depend on the processing

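Counts, shares and distances of D4-only regions depended on how strong a peak had to be, and the cause was not tested. Where a −log10 q of at least 2 was required in all EpiLC lists, 136 D4-only regions were left (2 in both D4 lists), with 24.3% called in female and 1.47% in male MEFs, at a median of 86.4 kb from D2. With that threshold in the D4 lists alone the values were 41 regions (1), 22.0%, 2.44% and 8.09 kb. With a fold enrichment of at least 3 in all EpiLC lists they were 280 (10), 24.6%, 0.357% and 95.2 kb. Median fold enrichment was 2.61 and 2.80 in the D2 lists and 2.82 and 2.85 in the D4 lists, so this cut does not fall equally on each. With lists of equal number, a cut that removed most D2 peaks, the values were 1458 (153), 21.5%, 0.754% and 70.5 kb. Merging peaks up to 5000 bp apart gave 479 regions, 12.5%, 0.626% and 39.7 kb. Keeping only regions at least 10 kb from D2 gave 423 (25), 13.5%, 0.709% and 57.9 kb. Counting D4 peaks covered by D2 over less than 50% gave 920 regions (65), 18.5%, 0.652% and 7.68 kb. Leaving out 1 library at a time gave 364 to 1026 regions, 57 to 72 in both D4 lists (with a D2 library left out), 16.7% to 19.2% in female MEFs, 0.390% to 0.663% in male MEFs and 12.0 to 20.5 kb. The male share rests on 4 regions. With the replicate number as a block, taking D4 peaks absent from the D2 list of the same number, 991 regions were found and 18.5% were in female MEFs; no test was blocked, since none was run. Alternatives chosen after seeing the data were the midpoint count (14.3% in female and 0.278% in male MEFs), the chromosome 4 stretch left out (13.8% in female MEFs) and touching peaks merged. Depth is unknown, so regions near the caller's threshold may be missing from either day.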
